A study of Mus musculus with 22 samples.

Results

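The transcription factor p53, its inhibitors Mdm2 and Mdm4 and 7 of its target genes (Cdkn1a, Ccng1, Bax, Zmat3, Phlda3, Gadd45a and Sesn2) were followed through depletion of the reinitiation factor DENR in mouse fibroblasts. The genes were chosen by name, as p53, regulators and direct targets, by a rule that uses no measured value, although earlier results of these data were known when they were chosen. All 10 had values in all 22 libraries, out of 10516 genes in the tables.

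p53 is a transcription factor that accumulates after DNA damage and other stress and induces genes of cell cycle arrest, apoptosis, DNA repair and metabolism. Mdm2, a ubiquitin ligase, marks p53 for degradation and is itself induced by p53, while its relative Mdm4 binds p53 and blocks transactivation. DENR acts with MCTS1 on ribosomes that have finished an upstream open reading frame (uORF) in the 5′ UTR and helps them to start again on the main coding sequence (CDS).

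Ribosome-protected fragments (RPF-seq, footprints) and total RNA (RNA-seq) were sequenced from the same 11 lysates of NIH3T3 cells, an immortalized mouse embryonic fibroblast line. Knockdown cells carried Denr shRNA1 or Denr shRNA2 (3 lysates each), and control cells carried a non-targeting scramble shRNA (3 lysates) or a Gfp shRNA (2 lysates). Every culture, controls included, was transduced with a lentiviral pLKO.1puro vector, selected with puromycin and exposed to cycloheximide at 100 µg/ml for 2 min before lysis. A replicate was 1 dish of transduced cells, and the cells were described as subconfluent in the series' design text and as confluent in the study's methods. An untransduced culture was not analysed here. Values are RPKM, reads per kilobase of region scaled to library size by the authors, so that levels of different genes can be compared per length.

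The libraries held 10927303 to 21649878 footprint reads and 8514080 to 20109700 RNA-seq reads on CDS and 5′ UTR, the latter with the fewest in scramble replicate 3. Denr RNA averaged 29.2 ± 13.0 RPKM (SD, n = 6) in knockdown and 165 to 190 RPKM in the 5 control lysates, with no overlap. All 11 fibroblast markers were detected, with a summed RNA level of 7916 to 9806 RPKM in knockdown and 7596 to 9178 RPKM in control lysates. Of the markers of other lineages, Cdh1 (epithelium, 2.74 to 4.05 RPKM), Lyz2 (blood, 26.5 to 52.3 RPKM) and Cdh5 (endothelium, 0.544 to 1.10 RPKM) had values.

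Short uORFs lie in front of several of these genes, and they are shown because DENR acts on ribosomes that have passed such frames. The sequences were read from the transcripts of GENCODE vM21 (GRCm38), with the start codon and, where it is printed, the stop codon in capitals. All lie in exon 1, in the 5′ UTR, on the minus strand. The letters searched were ATG on the transcript strand followed by an in-frame stop codon, in frames of at least 9 nt with the stop. Shorter frames were left out, as were ATGs in frame with the CDS whose frame runs into it. By this rule 50.2% of 10280 genes with an annotated 5′ UTR hold at least 1 such uORF. A match describes the sequence and does not show that ribosomes used it.
Mdm4 uORF at chr1:133025310-133025333: ttcaaaATGcagtgcaggcctTAG
Mdm4 uORF at chr1:133025249-133025269: cgactcATGgagcggccgTAA
Mdm2 uORF at chr10:117710555-117710575: cggaagATGcgcgggaagTAG
Mdm2 start of a longer uORF at chr10:117710622-117710631: gcgaccATGg
Ccng1 uORF at chr11:40755255-40755275: acgtagATGcgtcccagcTAG
Sesn2 start of a longer uORF at chr4:132510450-132510459: gtggggATGg

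Each Mdm4 uORF is short, with 5 and 4 codons before the stop, and both occur in all 4 Mdm4 transcripts examined. In the Mdm4 transcript whose 5′ UTR has the length behind the RPKM (199 nt), the second ends 31 nt upstream of the CDS, and a further uORF of 135 nt begins near the cap. The Mdm2 frame of 45 nt and the Sesn2 frame of 69 nt start in a strong Kozak context. Ccng1 holds a single uORF of 15 nt. No AUG uORF of at least 9 nt was found in the annotated 5′ UTRs of Trp53, Phlda3 or Gadd45a, and shorter ones were not searched for. Bax carries a uORF of 51 nt in 1 of its 2 transcripts, and the uORF of Zmat3 runs into the CDS. For Cdkn1a the number depends on the transcript, with 0, 3, 6 and 2 uORFs in the 4 annotated ones.

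In GRCm38, Trp53 (ENSMUSG00000059552) is at chr11:69580359-69591873 on the plus strand, Mdm2 (ENSMUSG00000020184) at chr10:117688875-117710758 on the minus strand and Mdm4 (ENSMUSG00000054387) at chr1:132959484-133030561 on the minus strand. Among the targets, Cdkn1a (ENSMUSG00000023067) is at chr17:29090976-29100727 and Phlda3 (ENSMUSG00000041801) at chr1:135766119-135769136, both on the plus strand. On the minus strand are Ccng1 (ENSMUSG00000020326, chr11:40748552-40755311), Bax (ENSMUSG00000003873, chr7:45461697-45466898), Zmat3 (ENSMUSG00000027663, chr3:32334792-32366014), Gadd45a (ENSMUSG00000036390, chr6:67035096-67037457) and Sesn2 (ENSMUSG00000028893, chr4:132492032-132510501). Pseudogenes named Trp53-ps and Mdm4-ps are annotated, so the assignment of reads to these genes is uncertain. Pseudogenes under other names were not searched for, so the other members are not shown to be free of this. Exons of Gadd45a share 337 bases, 238 of them in its CDS, with E230016M11Rik on the opposite strand, and Bax shares 192 bases of CDS with Gm45808 on the same strand. Whether the counting used strand is not given in the sources used here.

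In control cells all 10 genes lay above the median of all genes in RNA, and they differed widely in translation. By RNA, Ccng1, which encodes cyclin G1, led with a mean of 541 ± 45.2 RPKM (SD, n = 5), above 97.5% of genes. The proapoptotic Bax followed at 370 ± 50.7 RPKM and Phlda3, a repressor of Akt signalling, at 362 ± 58.1 RPKM. Bax and Phlda3 did not differ beyond their spread, since Bax was higher in 3 of 5 lysates. Mdm2 RNA (165 ± 13.9 RPKM) was next, above Trp53 (84.8 ± 4.77 RPKM) without overlap. Cdkn1a, which encodes the cyclin-dependent kinase inhibitor p21, stood at 68.4 ± 13.9 RPKM and Mdm4 at 54.7 ± 6.42 RPKM, and their ranges overlapped with each other. Cdkn1a also overlapped with Trp53. At the lower end were the RNA-binding protein gene Zmat3 (38.8 ± 1.61 RPKM), Sesn2, which encodes the stress-induced sestrin 2 (32.1 ± 1.80 RPKM), and Gadd45a, a growth arrest and DNA damage gene (31.5 ± 7.54 RPKM). Sesn2 and Gadd45a could not be ordered.

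**Figure D1:**
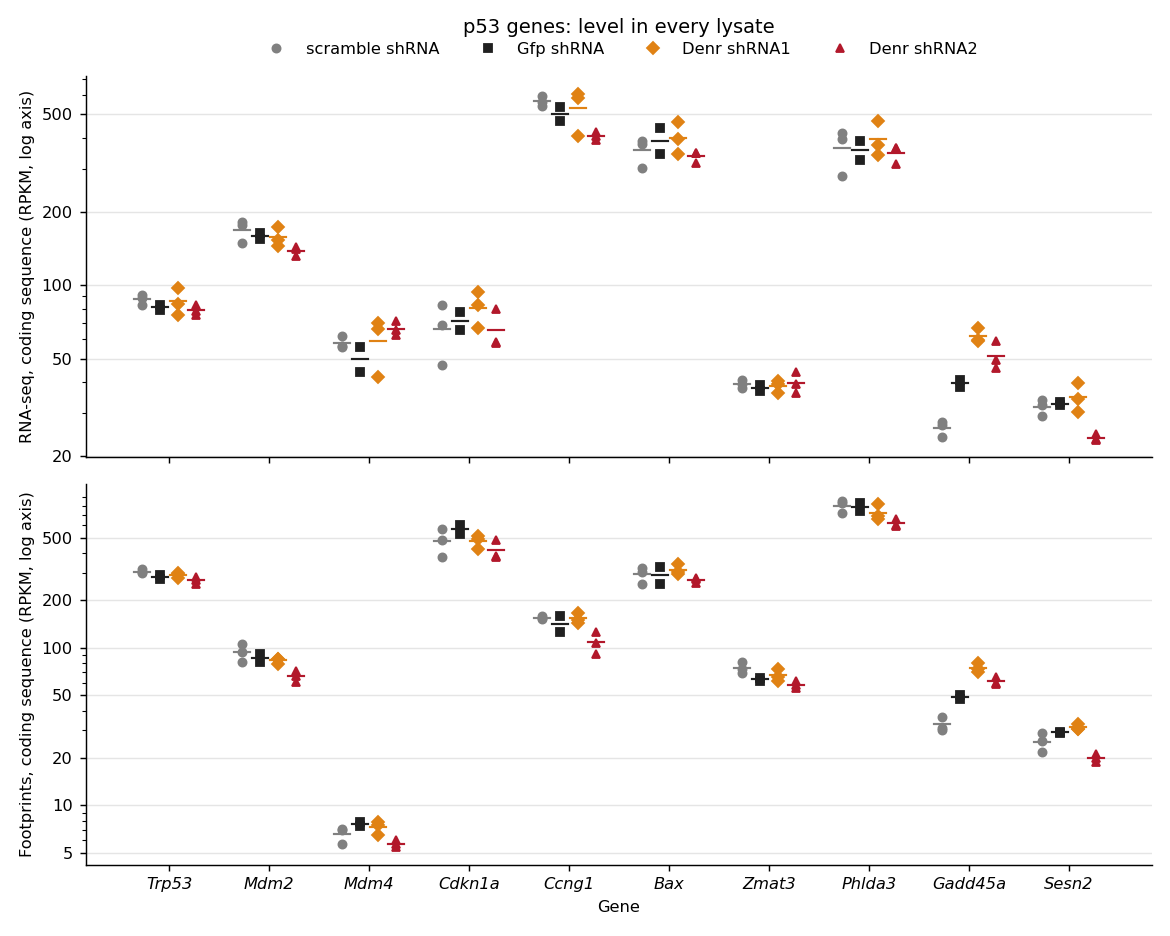
RNA-seq (top) and footprint (bottom) level on the CDS in RPKM on log axes for each of the 10 genes, with 1 point per lysate, colour and symbol for the shRNA and a short bar at each mean. Only Gadd45a has knockdown points that all lie above its control points, and the Gfp points of that gene lie above its scramble points.

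By footprints the order was different. Phlda3 came first (792 ± 60.2 RPKM, n = 5), followed by Cdkn1a (513 ± 88.0 RPKM), while Mdm4 came last at 7.01 ± 0.783 RPKM. Translation efficiency (TE), the ratio of footprint to RNA-seq RPKM on the CDS of a lysate, summarizes this. Log2 TE in control lysates ran from 2.91 ± 0.11 for Cdkn1a to -2.95 ± 0.29 for Mdm4, a 58.0-fold span. Cdkn1a ranked above 99.8% of all genes in TE and Trp53 (1.80 ± 0.04) above 98.8%, whereas Mdm4 ranked above 0.960% and Ccng1 (-1.85 ± 0.20) above 5.31%.

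The 3 genes at the head of this pathway thus lay far apart in TE. Log2 TE of Trp53 was 1.82, 1.74 and 1.85 in the scramble and 1.82 and 1.78 in the Gfp lysates. For Mdm2 it was -0.78, -0.90 and -0.87 in the scramble and -0.76 and -1.0 in the Gfp lysates, above 21.8% of genes. For Mdm4 it was -3.27, -3.10 and -2.97 in the scramble and -2.49 and -2.90 in the Gfp lysates. The ranges of the 3 genes did not touch. Mdm4 rested on few footprints, 91 to 219 reads per library on the CDS, against 660 to 1986 RNA-seq reads.

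Phlda3 (log2 TE 1.14 ± 0.20) and Zmat3 (0.84 ± 0.13) were also above the median of all genes, and their ranges overlapped. Gadd45a (0.31 ± 0.18) lay between them and a group near the median, Sesn2 (-0.27 ± 0.11) and Bax (-0.33 ± 0.27), which could not be ordered. The annotated isoforms differ, and a TE taken over a gene mixes them.

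Footprint density on the 5′ UTR was measured as relative 5′ UTR translation, the log2 ratio of footprint RPKM on the 5′ UTR to that on the CDS. It compares densities per length and is not the share of a gene's ribosomes that lie on the 5′ UTR. Genes entered this test if 9 or more of the 11 RPF-seq libraries held 20 or more 5′ UTR reads, which left 5175. Bax, with 12 to 23 such reads per library, did not reach this minimum, and the other 9 genes did. In control lysates Mdm4 had the highest value, 1.36 ± 0.52 (SD, n = 5), so its 5′ UTR was more densely covered than its CDS, above 93.5% of the genes tested. Ccng1 was the only other gene whose mean was above 0 (0.27 ± 0.30), above 77.9%. Zmat3 (-0.21 ± 0.28), Sesn2 (-0.37 ± 0.31), Trp53 (-1.24 ± 0.34), Phlda3 (-1.39 ± 0.18) and Gadd45a (-2.12 ± 0.77) followed. Mdm2 (-2.51 ± 0.49) and Cdkn1a (-2.58 ± 0.37) closed the order, above 16.6% and 15.8% of the genes tested. No pair of neighbours in this order had ranges that were apart. Within lysates, all 5 controls kept the order of Mdm4 over Ccng1, Ccng1 over Zmat3, Sesn2 over Trp53 and Phlda3 over Gadd45a. For the other neighbours 3 or 4 of 5 did.

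Mdm4 and Ccng1, the genes with the lowest TE, had the highest ratios of 5′ UTR to CDS footprints, and both carry the short uORFs printed above. CDS footprints are the numerator of TE and the denominator of this ratio, so the measures are not independent and a gene with few CDS footprints tends to be low in one and high in the other. Among the other members a higher ratio did not go with uORFs in every case. Mdm2 holds 2 uORFs in its transcript with the longest CDS and had one of the lowest ratios. Trp53, Phlda3 and Gadd45a, without an AUG uORF of at least 9 nt, had higher mean values than Mdm2. For 7 of the 10 genes an annotated transcript has a 5′ UTR as long as the RPKM implies. For Mdm2, Cdkn1a and Zmat3 none does, so the region measured there is not known to hold these uORFs. A match in 5′ UTR length alone does not show which transcripts were counted. The CDS length behind the Trp53 RPKM, 1222 nt, exceeds that of every Trp53 transcript examined (1137 to 1173 nt). Mdm4 also has several annotated transcripts, and the region behind its RPKM may merge them.

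**Figure D2:**
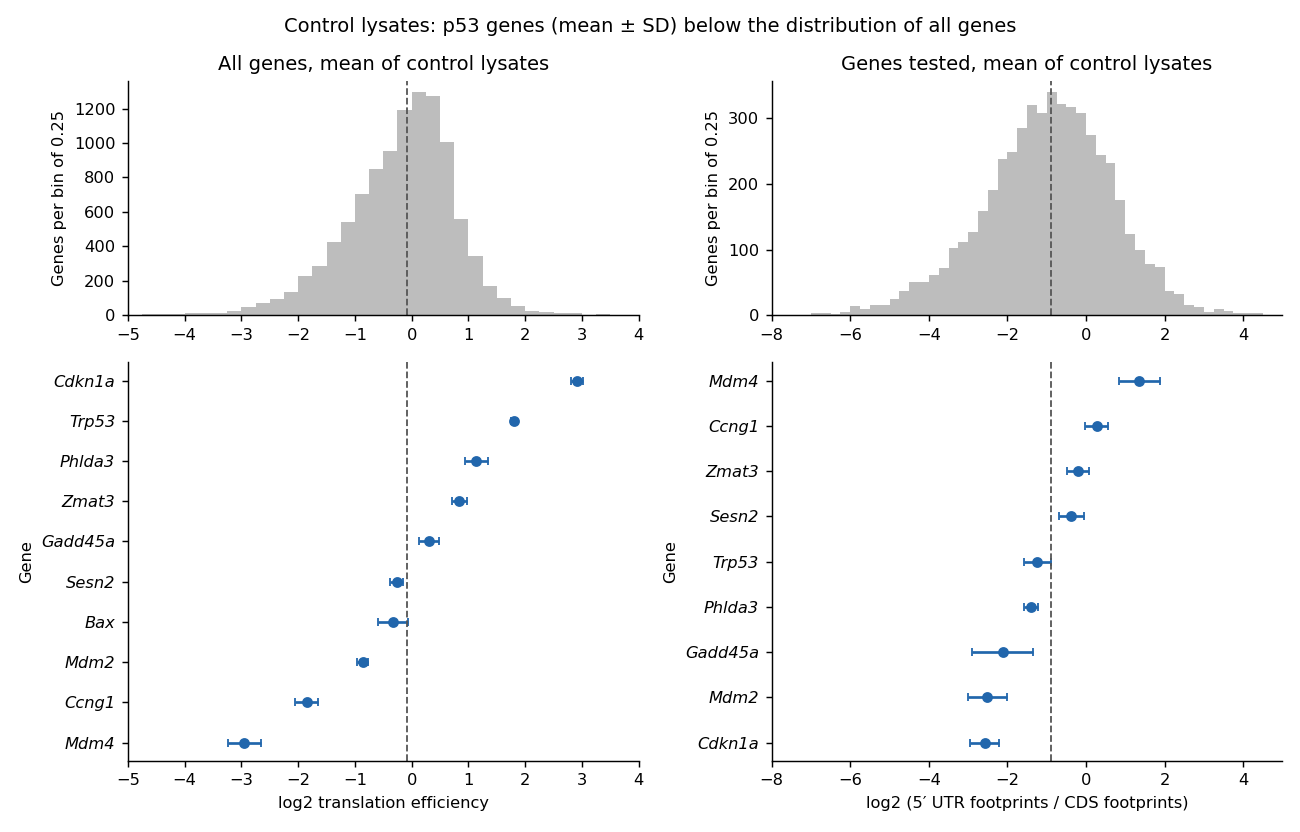
Distribution over genes (top, number per bin of 0.25) and mean ± SD over the 5 control lysates for each p53 gene (bottom) of log2 TE (left) and log2 relative 5′ UTR translation (right), with the median over genes dashed. Cdkn1a and Mdm4 lie at opposite ends of TE at 2.91 and -2.95, and Mdm4 leads the 5′ UTR ratio at 1.36.

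Knockdown was then compared with control, 6 against 5 lysates, to ask whether loss of DENR changed the RNA of the p53 genes. Gadd45a was higher, and no other member passed an FDR of 0.1 in limma. Over all genes 373 of 10516 (3.55%) passed, 2.68% upward, 282 of them higher and 91 lower (191 higher and 107 lower with libraries centred on their median). With 1 of 10 members called, no statement is made about the set. The median change of the members was 0.01 on the log2 scale and that of all genes was 0.03. In cultures measured in bulk, fewer cells with a transcript and less of it per cell cannot be told apart.

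Gadd45a RNA was 26.9, 27.5 and 24 RPKM in the scramble lysates, 38.3 and 40.8 RPKM in the Gfp lysates, and 45.6 (lowest), 58.9 (median) and 67.0 RPKM (highest) in the knockdown lysates. Knockdown and control did not overlap, as for 2.63% of genes with higher knockdown values. The log2 fold change was 0.86 ± 0.14 (SE, adjusted p = 0.00791, limma), a 1.82-fold rise on the log2(RPKM + 0.1) scale. Footprints on the Gadd45a CDS moved with it. They stood at 30.3, 31.1 and 36.5 RPKM in scramble, 47.3 and 50.05 RPKM in Gfp, and 58.7, 68.0 and 79.7 RPKM (lowest, median, highest) in knockdown lysates, again without overlap (2.48% of genes with higher knockdown values). Their log2 fold change was 0.82 ± 0.13 (SE, adjusted p = 0.00585, limma).

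The 2 control shRNAs differed from each other in the same gene. Gadd45a was higher in Gfp than in scramble lysates by 0.60 ± 0.12 log2 units in RNA and 0.58 ± 0.09 in footprints (SE, adjusted p = 0.0771 and 0.00641, limma, 2 against 3 lysates), a comparison added after the data had been examined, in which 0.704% and 8.48% of all genes passed. The RNA call was kept in 3 of 11 fits that each left out 1 lysate and the footprint call in 11 of 11. Against the Gfp lysates alone the knockdown change was 0.50 in RNA and 0.47 in footprints and neither passed (adjusted p = 0.389 and 0.127, limma). Against the scramble lysates alone it was 1.10 and 1.05 (adjusted p = 0.00119 and 0.000209, limma). The size of the rise therefore depended on the control shRNA. Gadd45a in Gfp was 1.52-fold its scramble level in RNA and 1.49-fold in footprints, and the Gfp arm had 2 lysates.

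Among the other members the RNA changes were small with the Denr shRNAs pooled. For Trp53 the change was -0.05 log2 units, with a 95% confidence interval from -0.21 to 0.12, and its RNA was 88.9, 90.8 and 82.5 RPKM in scramble, 82.7 and 79.4 RPKM in Gfp and 75.4, 80.6 and 97.7 RPKM (lowest, median, highest) in knockdown lysates. The control range lay within the knockdown range. Zmat3 (0.01, interval -0.13 to 0.16) was the most narrowly bounded target. Mdm2 (-0.16, interval -0.33 to 0.02), Ccng1 (-0.22, -0.49 to 0.04) and Sesn2 (-0.16, -0.45 to 0.12) had values below 0, and Mdm4 (0.19, -0.09 to 0.46), Cdkn1a (0.10, -0.23 to 0.44) and Phlda3 (0.04, -0.22 to 0.30) above it. Bax was at 0.00 (-0.24 to 0.23). For these 9 genes the adjusted p in limma ran from 0.358 upward. Mdm4 RNA was lowest in Denr shRNA1 replicate 1 (42.1 RPKM against 62.2 to 71.3 RPKM in the other knockdown lysates), and without that lysate its change was 0.30 (adjusted p = 0.0887, limma).

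On the CDS, footprints of 2 members passed the FDR of 0.1, Gadd45a upward and Phlda3 downward, with 10.0% of all genes passing (5.47% upward and 4.55% downward). Of the 10 members, 9 had a negative change, against 48.1% of all genes. The median was -0.13 for the members and 0.01 for all genes. These values pool the Denr shRNAs, which differed. With Denr shRNA1 alone Mdm4, Ccng1, Bax and Sesn2 also had a positive change, and all 10 members were lower with Denr shRNA2 than with Denr shRNA1. Phlda3, which encodes a pleckstrin homology protein that restrains Akt, had 850, 829 and 714 RPKM in scramble, 741 and 824 RPKM in Gfp and 595, 659 and 815 RPKM (lowest, median, highest) in knockdown lysates. All knockdown lysates but Denr shRNA1 replicate 2 lay below the lowest control. The change of -0.25 ± 0.08 (SE) sat at the threshold (adjusted p = 0.0978, limma). It passed in 3 of 11 fits that each left out 1 lysate (Denr shRNA1 replicate 2, Gfp replicate 1 or scramble replicate 3), with adjusted p from 0.0405 to 0.212 in limma.

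Mdm2 footprints lay just outside the threshold. They were 106, 94.0 and 80.8 RPKM in scramble, 90.9 and 81.8 RPKM in Gfp and 60.6, 75.1 and 85.5 RPKM (lowest, median, highest) in knockdown lysates. The change was -0.29 ± 0.10 (SE, adjusted p = 0.105, limma), and the groups overlapped. It passed without Denr shRNA1 replicate 1, Denr shRNA1 replicate 2 or Gfp replicate 2, with adjusted p over all 11 such fits from 0.0673 to 0.239 in limma.

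The changes of the other members did not pass. They were -0.22 for Ccng1, -0.19 for Cdkn1a, -0.15 for Zmat3, -0.11 for Mdm4, -0.09 for Sesn2, -0.08 for Trp53 and -0.01 for Bax (adjusted p from 0.270 to 0.971, limma). For Trp53 the 95% interval ran from -0.20 to 0.04, and its footprints were 315, 303 and 297 RPKM in scramble, 292 and 272 RPKM in Gfp and 253, 280 and 298 RPKM (lowest, median, highest) in knockdown lysates. The groups overlapped, with 2 control lysates above every knockdown lysate and 2 knockdown lysates below every control.

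**Figure D3:**
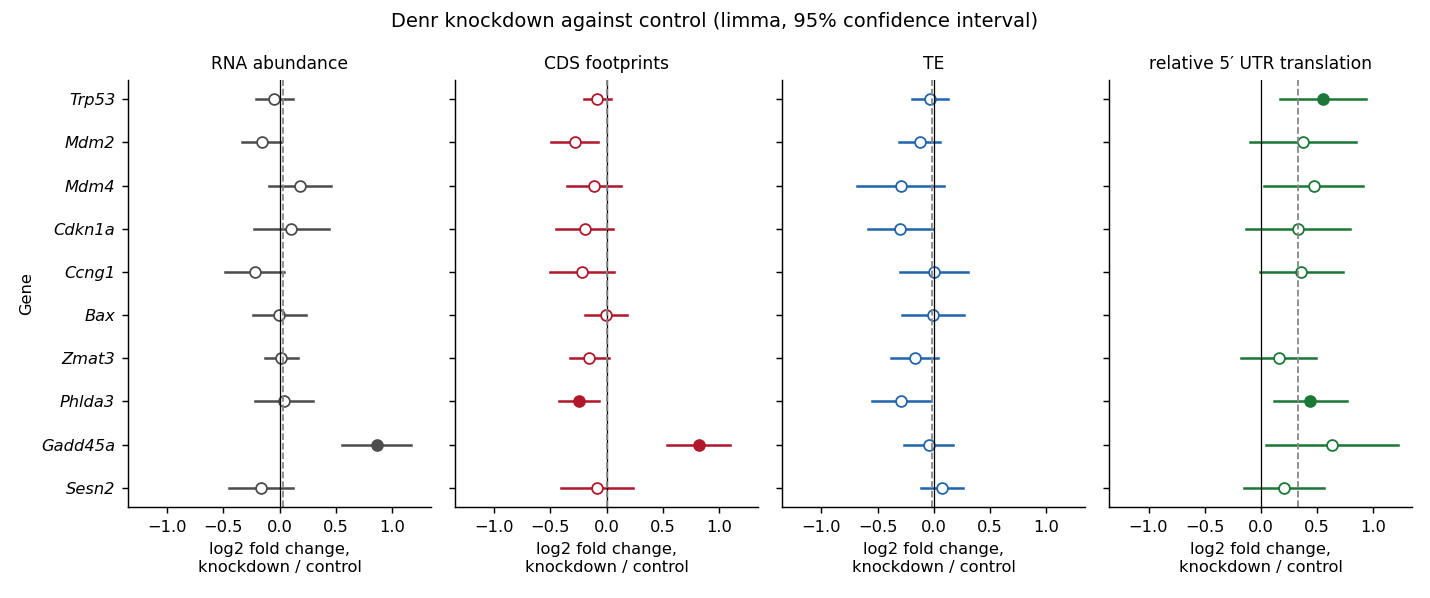
Log2 fold change, knockdown against control, for the p53 genes in RNA, CDS footprints, TE and relative 5′ UTR translation, with 95% confidence intervals from limma. Points are filled for an adjusted p below 0.1, and the median of the genes tested in each measure is dashed. Gadd45a stands apart in RNA (0.86) and footprints (0.82) but lies at -0.05 in TE. The 5′ UTR ratios scatter around the median of 0.33 over the genes tested.

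No member changed in TE at an FDR of 0.1 in limma, where 50 genes (0.475%) passed, every one of them lower. An interaction term over the 22 libraries called none of the members either, and 39 genes in all. At an unadjusted p below 0.05 there were 2 members, Cdkn1a and Phlda3, against 6.66% of all genes. Log2 TE of Cdkn1a was 2.78, 2.81 and 3.01 in scramble, 2.96 and 3.00 in Gfp and 2.26, 2.62 and 3.06 (lowest, median, highest) in knockdown lysates, a change of -0.30 ± 0.13 (SE, adjusted p = 0.732, limma). Cdkn1a, the most efficiently translated gene of the set in controls, thus overlapped between the groups, and its highest TE was in a knockdown lysate. Phlda3 changed by -0.29 ± 0.12 (SE, adjusted p = 0.693, limma).

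Mdm4, with the short uORFs and the lowest TE, changed by -0.30 ± 0.18 (SE, adjusted p = 0.894, limma), with an interval from -0.68 to 0.09. Its log2 TE in the knockdown lysates was -3.53 (lowest), -3.34 (median) and -2.68 (highest), overlapping with the controls. The mean was -2.97 with Denr shRNA1, near the control mean of -2.95, and -3.51 with Denr shRNA2. The control shRNAs also differed, at -3.11 with scramble and -2.69 with Gfp. The pooled Mdm4 change therefore came mostly from the Denr shRNA2 lysates. Zmat3 was at -0.17 and Mdm2 at -0.13, and Trp53, Gadd45a, Bax, Ccng1 and Sesn2 lay between -0.05 and 0.07. For Gadd45a the interval was -0.27 to 0.17, so its footprints and RNA differed between the groups by like amounts within that error.

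Relative 5′ UTR translation was higher in knockdown for most of the 5175 genes tested. Their median change was 0.33, and 93.5% of them were higher. All 9 members measured were higher as well, with a median of 0.38, and changes are therefore read against that shift. Trp53 and Phlda3 passed the FDR of 0.1, where 18.1% of genes passed in the upward direction. For Trp53 the ratio was -1.24, -0.86 and -1.51 in scramble, -1.64 and -0.94 in Gfp and -0.94, -0.71 and -0.36 (lowest, median, highest) in knockdown lysates. The groups overlapped by 1 control lysate, scramble replicate 2, which lay within the knockdown range. The change was 0.55 ± 0.18 (SE, adjusted p = 0.0796, limma). For Phlda3 it was 0.44 ± 0.15 (SE, adjusted p = 0.0860, limma).

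Neither call held once each library was centred on its own median, where the change was 0.23 for Trp53 and 0.12 for Phlda3 and no member passed (adjusted p of 0.591 and more, limma, 4 genes called in all). On that scale Gadd45a was at 0.31, Mdm4 at 0.15, Mdm2 at 0.05, Ccng1 at 0.04 and Cdkn1a at 0.01, while Sesn2 (-0.12) and Zmat3 (-0.16) fell below 0. Before centring these genes were at 0.63, 0.47, 0.38, 0.36, 0.33, 0.21 and 0.16, with adjusted p from 0.131 in limma. The calls for Trp53 and Phlda3 were each kept in 4 of 11 fits that left out 1 lysate.

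Without the division by the CDS, footprints on the 5′ UTR itself were higher for Gadd45a (1.45, adjusted p = 0.0188, limma) and Trp53 (0.47, adjusted p = 0.0781). On this measure 1192 of the 5175 genes tested passed upward, and the median change was 0.30. RNA was not divided out here, and Gadd45a RNA itself rose by 0.86. Gadd45a had 8.75 and 16.4 RPKM on its 5′ UTR in the Gfp, 7.66, 12.4 and 3.65 RPKM in the scramble and 15.2, 24.5 and 33.7 RPKM (lowest, median, highest) in the knockdown lysates, from 12 to 72 reads per library. Only the highest control, Gfp replicate 2, reached into the knockdown range. For Trp53 the 5′ UTR had 236 to 426 reads per library. Ccng1 and Mdm4, with the highest ratios in controls, changed by 0.14 and 0.36 on this measure and did not pass.

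**Figure D4:**
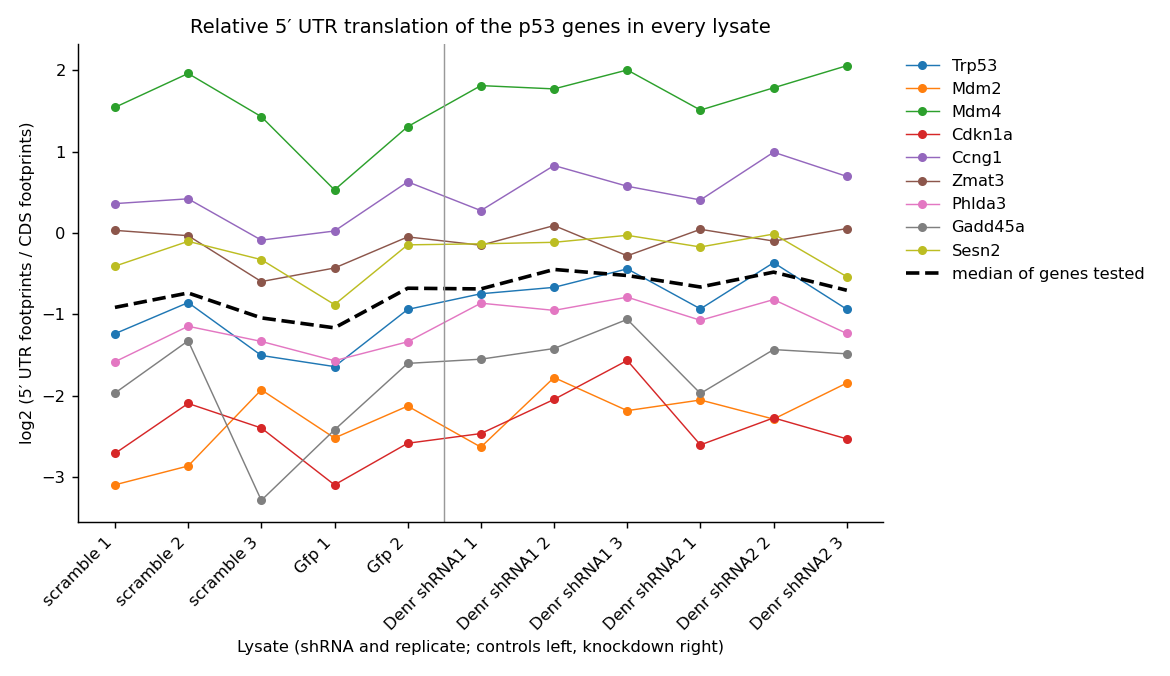
Log2 ratio of footprint RPKM on the 5′ UTR to that on the CDS in each lysate for the 9 p53 genes measured, and the median of the 5175 genes tested (dashed), with thin lines that only join the points of 1 gene. The median moves from between -1.17 and -0.68 in controls to between -0.70 and -0.45 in knockdown lysates, and the values of each of the 9 genes overlap between the groups.

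The Denr shRNAs were compared with each other, 3 lysates against 3, to ask whether they gave the same member values. They also differed in the depth of knockdown, whose part in the differences was not tested. Denr RNA was 40.5 ± 5.32 RPKM with shRNA1 and 17.9 ± 2.70 RPKM with shRNA2. Several p53 genes were lower with shRNA2. On the CDS, footprints of Sesn2, Ccng1 and Mdm2 passed the FDR of 0.1, all downward, where 6.06% of genes passed and 2.19% passed downward. All 10 members had a negative change, against 53.5% of genes, and in 7 of them every shRNA2 lysate lay below every shRNA1 lysate, against 13.8% of genes. In RNA, Sesn2 alone passed (1.58% of genes, 0.685% downward), and 3 members did not overlap in the downward direction (11.3% of genes). These counts are given without a test, since members are not replicates.

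Sesn2, the sestrin that responds to stress and restrains mTORC1, had footprints of 30.8, 32.6 and 30.4 RPKM with shRNA1 and 20.1, 21.3 and 18.9 RPKM with shRNA2. The control lysates, at 28.8, 25.5 and 21.7 RPKM with scramble and 29.2 and 28.8 RPKM with Gfp, lay between them without touching either group. The log2 difference of shRNA2 from shRNA1 was -0.64 ± 0.11 in footprints (SE, adjusted p = 0.00445, limma) and -0.54 ± 0.10 in RNA (adjusted p = 0.0330, limma). The RNA stood at 39.7, 34.3 and 30.2 RPKM with shRNA1 and 24.6, 23.2 and 23.4 RPKM with shRNA2. The RNA call was lost when Denr shRNA1 replicate 2, Denr shRNA2 replicate 2 or Denr shRNA2 replicate 3 was left out, and the footprint call was kept in 11 of 11 such fits. Against the same control lysates, shRNA1 alone gave 0.11 in RNA and 0.23 in footprints, neither passing, and shRNA2 alone gave -0.43 and -0.41 (adjusted p = 0.0244 and 0.0615, limma). The pooled footprint value near 0 therefore joined lysates on either side of the controls. In RNA the shRNA2 lysates lay below every control, while Denr shRNA1 replicate 3 lay within the control range.

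Ccng1 footprints were 150, 143 and 167 RPKM with shRNA1 and 126, 90.8 and 108 RPKM with shRNA2, with no overlap. The difference was -0.51 ± 0.12 (SE, adjusted p = 0.0315, limma). In RNA it was -0.36 ± 0.14 and did not pass (adjusted p = 0.320, limma), and Denr shRNA1 replicate 1, at 406 RPKM against 586 and 607 RPKM in the others, lay within the shRNA2 range. Without that lysate the RNA difference was -0.55 (adjusted p = 0.0324, limma). With shRNA2, Ccng1 RNA was 394 to 423 RPKM, below every control lysate (471 to 594 RPKM). Denr shRNA1 replicate 1 lay below every control too. The footprint call was lost when Denr shRNA1 replicate 3, Denr shRNA2 replicate 2 or Denr shRNA2 replicate 3 was left out, with differences from -0.52 to -0.39.

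Mdm2 footprints were 84.4, 85.5 and 79.4 RPKM with shRNA1 and 66.5, 70.8 and 60.6 RPKM with shRNA2. They did not overlap, and the difference was -0.33 ± 0.10 (SE, adjusted p = 0.0845, limma), but the call was kept in 3 of 11 fits that left out 1 lysate (without Gfp replicate 2, scramble replicate 1 or scramble replicate 3, adjusted p from 0.0477 to 0.289 over the 11, limma). Mdm2 RNA was also lower in every shRNA2 than in every shRNA1 lysate, by 0.18 log2 units on average (adjusted p = 0.496, limma). Mdm4 had the largest difference in TE, -0.53 ± 0.19 (SE, adjusted p = 0.956, limma), and no gene in the tables passed for TE in this comparison, with 4.09% at an unadjusted p below 0.05 and 1 of 10 members.

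Trp53 was the least different member in footprints between the shRNAs, at -0.12 with a 95% interval from -0.27 to 0.04. Gadd45a, whose footprints were 73.0, 79.7 and 70.5 RPKM with shRNA1 and 59.9, 65.5 and 58.7 RPKM with shRNA2, was higher than every control with either shRNA. Its difference of -0.28 ± 0.17 between them did not pass (adjusted p = 0.455, limma). Set separately against the controls, which both comparisons share, the shRNAs gave 0.96 and 0.68 in Gadd45a footprints (adjusted p = 0.00752 and 0.0472, limma).

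**Figure D5:**
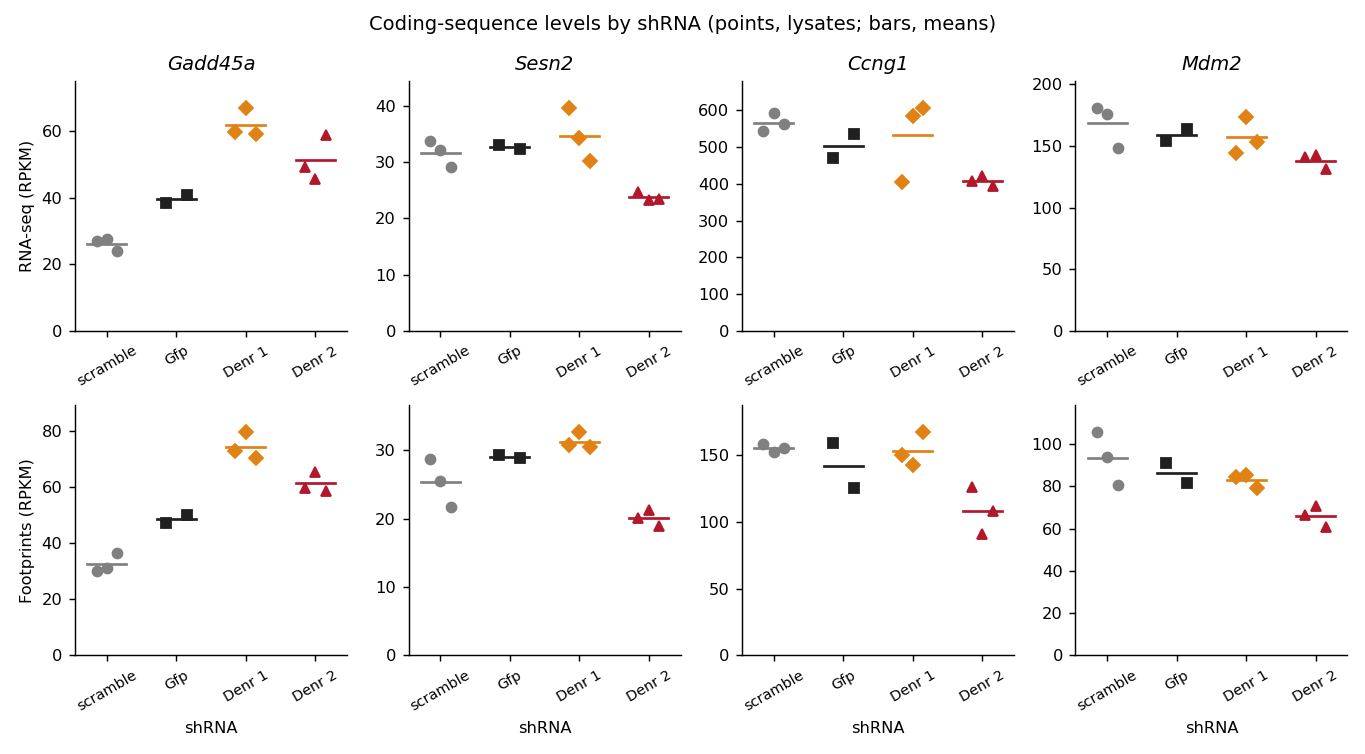
RNA-seq (top) and footprint (bottom) RPKM on the CDS of Gadd45a, Sesn2, Ccng1 and Mdm2 by shRNA, with a point per lysate and a bar at each mean. Sesn2 footprints are 30.4 to 32.6 RPKM with Denr shRNA1 and 18.9 to 21.3 RPKM with Denr shRNA2, on either side of the controls, and Gadd45a is higher with Gfp than with scramble shRNA.

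The wider pathway was read from 6 lists of 77 further gene symbols, 64 of which had values. In RNA 1 of the 64 passed the FDR of 0.1, in the downward direction, and in footprints 3 passed upward and 4 downward, where 3.55% of all genes passed in RNA and 10.0% in footprints (5.47% upward and 4.55% downward). In TE none did in limma. In relative 5′ UTR translation 3 of the 34 measured passed upward, against 18.1% of the genes tested. The median of the 34 was 0.25, against 0.33 over the genes tested. In RNA, CDS footprints and TE the medians of the 64 genes were 0.00, -0.01 and -0.02. The 22 regulators of p53 gave 1 footprint call, the 5 arrest genes 1, the 10 apoptosis genes 1 and the 6 repair genes 0. The 11 genes of metabolism, redox state and autophagy gave 3 and the 10 other targets 1. Cdkn2a, the source of the Mdm2 inhibitor Arf, and Pmaip1, which encodes the proapoptotic Noxa, are among the 13 symbols not analysed here. The p53 family members Trp63 and Trp73 are also among them.

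In RNA the gene that passed was Ei24, which encodes a membrane protein of the endoplasmic reticulum (-0.27 ± 0.07 SE, adjusted p = 0.0674, limma). In footprints the rises were in Trp53rka, a kinase gene (0.47, adjusted p = 0.0851, limma), Ddit4, which encodes the mTORC1 inhibitor Redd1 (0.44, adjusted p = 0.0256), and Dram1, an autophagy gene (0.36, adjusted p = 0.0281). The largest falls were in Ephx1, an epoxide hydrolase gene (-0.33, adjusted p = 0.0209, limma), the receptor gene Notch1 (-0.33, adjusted p = 0.0467) and Aen, a nuclease gene (-0.26, adjusted p = 0.0984). Trp53rka rested on 54 to 93 footprints per library. Higher in relative 5′ UTR translation were Rpl5, a ribosomal protein gene whose product binds Mdm2 (0.91, adjusted p = 0.0445, limma), Aen (0.68, adjusted p = 0.0591) and the death receptor gene Tnfrsf10b (0.58, adjusted p = 0.0860). These values include the median shift of 0.33 over the genes tested.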

How the data were processed

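The deposited tables give RPKM of the CDS and 5′ UTR per gene and library. Per the study's methods, the authors trimmed and size-selected reads, aligned them to rRNA, tRNA, cDNA and genome (GRCm38; Bowtie2 2.2.1 and TopHat2 2.0.11, versions from the submitters' processing notes), counted them on expressed isoforms, removed genes with few reads and scaled each assay's libraries to the upper quartile before computing RPKM. Reads were recovered from the RPKM steps (all 231352 CDS values whole, within 8.4e-10 of a read), and intervals cover the spread between lysates. Here log2(RPKM + 0.1) was fitted over all genes with limma 3.58.1 (eBayes with trend, R 4.3.3), two-sided, adjusting p by Benjamini-Hochberg over all genes (FDR 0.1). The Denr shRNAs were contrasted in a fit of 3 groups (each Denr shRNA and the controls), and Gfp with scramble in a fit of 4. Fits were tested on simulated data. Symbols matched 10505 of 10516 IDs. Named were the 10 members and, of the wider lists, up to 3 rises and 3 falls per measure. The members and lists were chosen with earlier results of these data known. The comparison of Gfp with scramble shRNA and the fit against Gfp alone were chosen after seeing the data. Alternatives were pseudocounts, filters, centring, control and Denr shRNAs taken alone, a replicate block, voom on recovered reads, an interaction term for TE and each lysate left out. iCLIP and reporter data were not used here.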

Additional observations from a re-analysis of the deposited data

Results flagged for a closer look

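Of 78 groups of lysates tested, 1 for each gene, measure and arm, 3 held a lysate far from the others, and chance alone flags about 1 in 20. In the knockdown arm Mdm4 RNA was lowest in Denr shRNA1 replicate 1, at 5.40 on the log2(RPKM + 0.1) scale, 0.67 below the mean of the other knockdown lysates. In the control arm Ccng1 footprints were lowest in Gfp replicate 2, at 6.97 on the same scale and 0.32 below the others. In the knockdown arm the log2 ratio of 5′ UTR to CDS footprints of Sesn2 was lowest in Denr shRNA2 replicate 3, at -0.54, 0.44 below the others. Differences between the Denr shRNAs that passed the FDR of 0.1 in limma were -0.54 (Sesn2 RNA), -0.64 (Sesn2 footprints), -0.51 (Ccng1 footprints) and -0.33 (Mdm2 footprints), as log2 values of shRNA2 minus shRNA1. Denr itself was lower with shRNA2 by 1.18 log2 units in RNA, and the part of knockdown depth in these differences was not tested.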

How the results depend on the processing

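The count of members past the FDR of 0.1 in knockdown against control was 1 in RNA, 2 in footprints, 0 in TE and 2 in relative 5′ UTR translation. In RNA it was 3 with Denr shRNA2 alone, 0 against Gfp shRNA alone and 1 to 2 with 1 lysate left out. In footprints it was 1 with Denr shRNA1 alone or without the eBayes trend, 5 with Denr shRNA2 alone, 4 against scramble alone, 0 against Gfp alone and 1 to 3 with 1 lysate left out. In relative 5′ UTR translation it was 0 with either Denr shRNA or either control shRNA alone, with centred libraries, with a 5′ UTR filter at an RPKM of 1, and after subtraction of the RNA-seq ratio, and 0 to 4 with 1 lysate left out. Between the Denr shRNAs leaving out 1 lysate gave 0 to 2 in RNA and 1 to 4 in footprints, and between Gfp and scramble 0 to 1 and 1 to 3. The causes were not tested. Over all genes the counts in RNA, footprints, TE and relative 5′ UTR translation (373, 1053, 50 and 939) became 940, 2651, 10 and 514 against scramble alone and 18, 92, 0 and 47 against Gfp alone. Denr shRNA1 alone gave 159, 817, 1 and 5, and Denr shRNA2 alone 474, 774, 43 and 9. In relative 5′ UTR translation centring gave 4, the 5′ UTR filter 131 and the subtraction 165. Leaving out 1 lysate gave 139 to 734, 484 to 1946, 14 to 72 and 38 to 1773 genes, and between the Denr shRNAs 41 to 210 in RNA and 307 to 843 in footprints (166 and 637 with all lysates). Between Gfp and scramble it gave 1 to 212 and 154 to 1300 (74 and 892).

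Deviations from the shRNA means correlated between lysates of the same replicate number with a mean of 0.326 in RNA and 0.18 in footprints. For different numbers the means were -0.163 and -0.0894. Deviations sum to 0 within an shRNA, so these means are tied to the first ones and give no separate comparison. A correlation over 0.1 was reached by 10 of 15 same-number pairs in RNA and 13 of 15 in footprints, not by every pair, and the labels tie a number to no shared batch, so the numbers were not taken to pair the lysates. With the number as a block, 1, 3, 0 and 5 members passed in RNA, footprints, TE and relative 5′ UTR translation, and 1003, 1940, 58 and 2418 genes. The members gained were Mdm2 in footprints (adjusted p = 0.0970, limma) and Ccng1, Gadd45a and Mdm4 in relative 5′ UTR translation (adjusted p = 0.0472, 0.0529 and 0.0875). Between the Denr shRNAs the block gave 1, 3 and 0 members and 612 genes in RNA, and between Gfp and scramble 1, 1 and 0 members with 157 and 1437 genes. Under this pairing Bax turned to 0.025 in RNA and 0.0055 in footprints.

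Changes near 0 turned sign, as log2 values. With centred libraries these were Zmat3 RNA (-0.0078), Bax TE (0.0091), and relative 5′ UTR translation of Zmat3 (-0.16) and Sesn2 (-0.12). With Denr shRNA1 alone they were RNA of Trp53 (0.0095), Bax (0.12), Zmat3 (-0.0035) and Sesn2 (0.11) and footprints of Mdm4 (0.062), Ccng1 (0.034), Bax (0.098) and Sesn2 (0.23). With Denr shRNA2 alone they were RNA of Cdkn1a (-0.050) and Phlda3 (-0.048) and TE of Ccng1 (-0.074) and Bax (0.012). Against scramble alone they were RNA of Bax (0.049) and Zmat3 (-0.0097). Against Gfp alone they were Trp53 RNA (0.017), Bax footprints (0.0013) and TE of Ccng1 (-0.020), Bax (0.083) and Sesn2 (-0.019). With 1 lysate left out the ranges that crossed 0 were, in RNA, -0.027 to 0.18 for Cdkn1a, -0.073 to 0.061 for Bax, -0.018 to 0.039 for Zmat3 and -0.050 to 0.098 for Phlda3. In footprints Bax ranged from -0.055 to 0.036. In TE the ranges were -0.083 to 0.074 for Ccng1, -0.12 to 0.063 for Bax and -0.097 to 0.027 for Gadd45a. Between the Denr shRNAs RNA of Mdm4 ranged from -0.037 to 0.33 and of Zmat3 from -0.037 to 0.11, and between Gfp and scramble Gadd45a TE from -0.094 to 0.12. Depth limits Mdm4 on the CDS and Gadd45a and Bax on the 5′ UTR most.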
